A study of Mus musculus with 13 samples.

Results

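The 6 genes described here encode ligands through which macrophages stimulate or restrain T cells, and the receptor CD40: Cd274 (PD-L1), Pdcd1lg2 (PD-L2), Cd80, Cd86, Cd40 and Icosl. They were chosen by name, as 6 of 21896 protein-coding genes of the mouse annotation, with earlier results of these data known but with no threshold on a measured value. A gene's value was the number of reads in islands, which are stretches enriched for acetylation of lysine 27 on histone H3 (H3K27ac), that touched the gene span or 1 kb either side of it. The interval between Cd274 and Pdcd1lg2, which are neighbours on chromosome 19, was included and is described with them. Between 13 and 21 islands per library lay over the 6 genes and the interval, 215 in all, and each of the 6 genes had an island in each of the 13 libraries.

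H3K27ac marks active promoters and enhancers, and wide acetylated stretches are found at genes that define or change the state of a cell. CD80 and CD86 bind CD28, which costimulates T cells, and CTLA-4, which restrains them. ICOS ligand binds ICOS, PD-L1 and PD-L2 bind the inhibitory receptor PD-1, and CD40 is itself a receptor of the tumour necrosis factor (TNF) receptor family that takes up the signal of CD40 ligand on T cells. Interferon-γ (IFNγ) and interleukin-4 (IL-4), which signals through STAT6, are known to change several of these ligands on macrophages, PD-L1 with IFNγ and PD-L2 with IL-4 among them.

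The libraries came from primary bone marrow-derived macrophages of C57BL/6 mice, grown in L929-conditioned medium and taken on day 7 of differentiation, with 1 library per condition. The cytokine experiment had 7 libraries: untreated cells, and cells given IL-4 (10 ng/ml), IFNγ (100 ng/ml) or both, each for 2 h and for 4 h. The knockdown experiment had 6 libraries, of cells carrying a scramble shRNA, an shRNA named shJunB or one named shCEBP-beta, each untreated and after 4 h of IFNγ (100 ng/ml). No shRNA is named for the cytokine libraries, and the labels give neither the age of the mice nor the number pooled in a library. The 3 untreated knockdown libraries serve as controls within their own shRNA, and JunB and C/EBPβ are transcription factors of the AP-1 and C/EBP families. An shRNA acts on the RNA of its target, so these libraries hold no check of the knockdown.

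The 250 bases before the RefSeq start site (GRCm38.p6, plus strand) are shown for the 4 members the promoter table lists, since islands lay over these start sites. Capitals mark matches, on either strand, to the STAT6, κB and AP-1 patterns spelled out after the sequences. The Cd80 matches to the κB and AP-1 patterns abut each other, and the Cd274 promoter held no match. The windows are chr19:29367188-29367437 for Cd274, chr19:29410669-29410918 for Pdcd1lg2, chr16:38458683-38458932 for Cd80 and chr10:78069118-78069367 for Icosl.
Cd274: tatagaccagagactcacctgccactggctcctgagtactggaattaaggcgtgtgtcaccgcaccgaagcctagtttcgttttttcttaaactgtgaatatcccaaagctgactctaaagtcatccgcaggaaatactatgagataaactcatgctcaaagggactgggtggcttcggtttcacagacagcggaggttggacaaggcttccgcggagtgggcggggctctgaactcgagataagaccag
Pdcd1lg2: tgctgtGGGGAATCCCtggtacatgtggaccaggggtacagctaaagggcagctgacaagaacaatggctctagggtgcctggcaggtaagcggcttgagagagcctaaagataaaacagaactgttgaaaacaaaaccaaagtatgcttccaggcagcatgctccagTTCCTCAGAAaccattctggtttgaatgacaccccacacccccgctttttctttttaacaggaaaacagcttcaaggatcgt
Cd80: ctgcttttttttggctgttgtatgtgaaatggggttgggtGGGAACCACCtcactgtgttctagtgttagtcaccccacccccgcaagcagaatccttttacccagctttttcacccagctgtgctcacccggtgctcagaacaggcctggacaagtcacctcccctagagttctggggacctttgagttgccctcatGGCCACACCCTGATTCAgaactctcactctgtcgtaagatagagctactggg
Icosl: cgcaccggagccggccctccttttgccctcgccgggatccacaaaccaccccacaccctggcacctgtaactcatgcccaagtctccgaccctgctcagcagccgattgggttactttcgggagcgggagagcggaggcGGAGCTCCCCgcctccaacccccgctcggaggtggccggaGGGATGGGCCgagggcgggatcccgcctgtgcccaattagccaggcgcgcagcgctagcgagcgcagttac
In the Pdcd1lg2 window a match to the STAT6 pattern (TTC, any 4 bases, GAA) lay 82 to 73 bases before the start, and a match to the κB pattern (GGG, any 5 bases, CC) lay 244 to 235 bases before it. Of 32851 listed promoters 5.85% held the STAT6 pattern and 45.8% the κB pattern in a window of this length. The Cd80 window held the AP-1 pattern TGANTCA, found in 6.75% of promoters, and 2 κB matches, and the Icosl window held 2 κB matches. None of the 4 windows held the GAS pattern (TTC, any 3 bases, GAA; 7.02% of promoters), the ISRE pattern (GAAA, any 2 bases, GAAA; 2.98%) or the C/EBP pattern (TTGC, any 2 bases, AA; 9.56%), which says only that these letters are not in these windows. The Icosl promoter had a GC content of 68.8% with 23 CpG dinucleotides, Cd274 50.4% with 11, Cd80 52.8% with 3 and Pdcd1lg2 48.4% with 3. Cd40 and Cd86 are named without a sequence.

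Reads in islands came to 10.1 to 29.5 M per library. The called length was 176 to 206 Mb per cytokine library and 218 to 244 Mb per knockdown library. Reads were divided by a size factor per library (median of ratios over 14347 regions called in all libraries), and the result is called normalised reads. All 10 macrophage markers examined (Csf1r and Adgre1 among them) had islands in every library. The T cell markers Cd3g and Cd8a, the B cell markers Pax5 and Ebf1, the dendritic cell markers Ccr7 and Cd209a and the neutrophil markers Ly6g, S100a9 and Mpo had none in any library, and of 5 fibroblast markers at most 1 had one. Some markers of other cells did have islands: 4 to 5 of 8 for T cells, 2 to 4 of 6 for B cells, 5 to 6 of 8 for dendritic cells and 2 to 4 of 7 for neutrophils. The dendritic cell list summed to between 6713 and 20822 normalised reads over the 13 libraries, and its part in the results below was not tested. Fewer acetylated cells and less acetylation per cell cannot be told apart in these libraries.

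**Figure D1:**
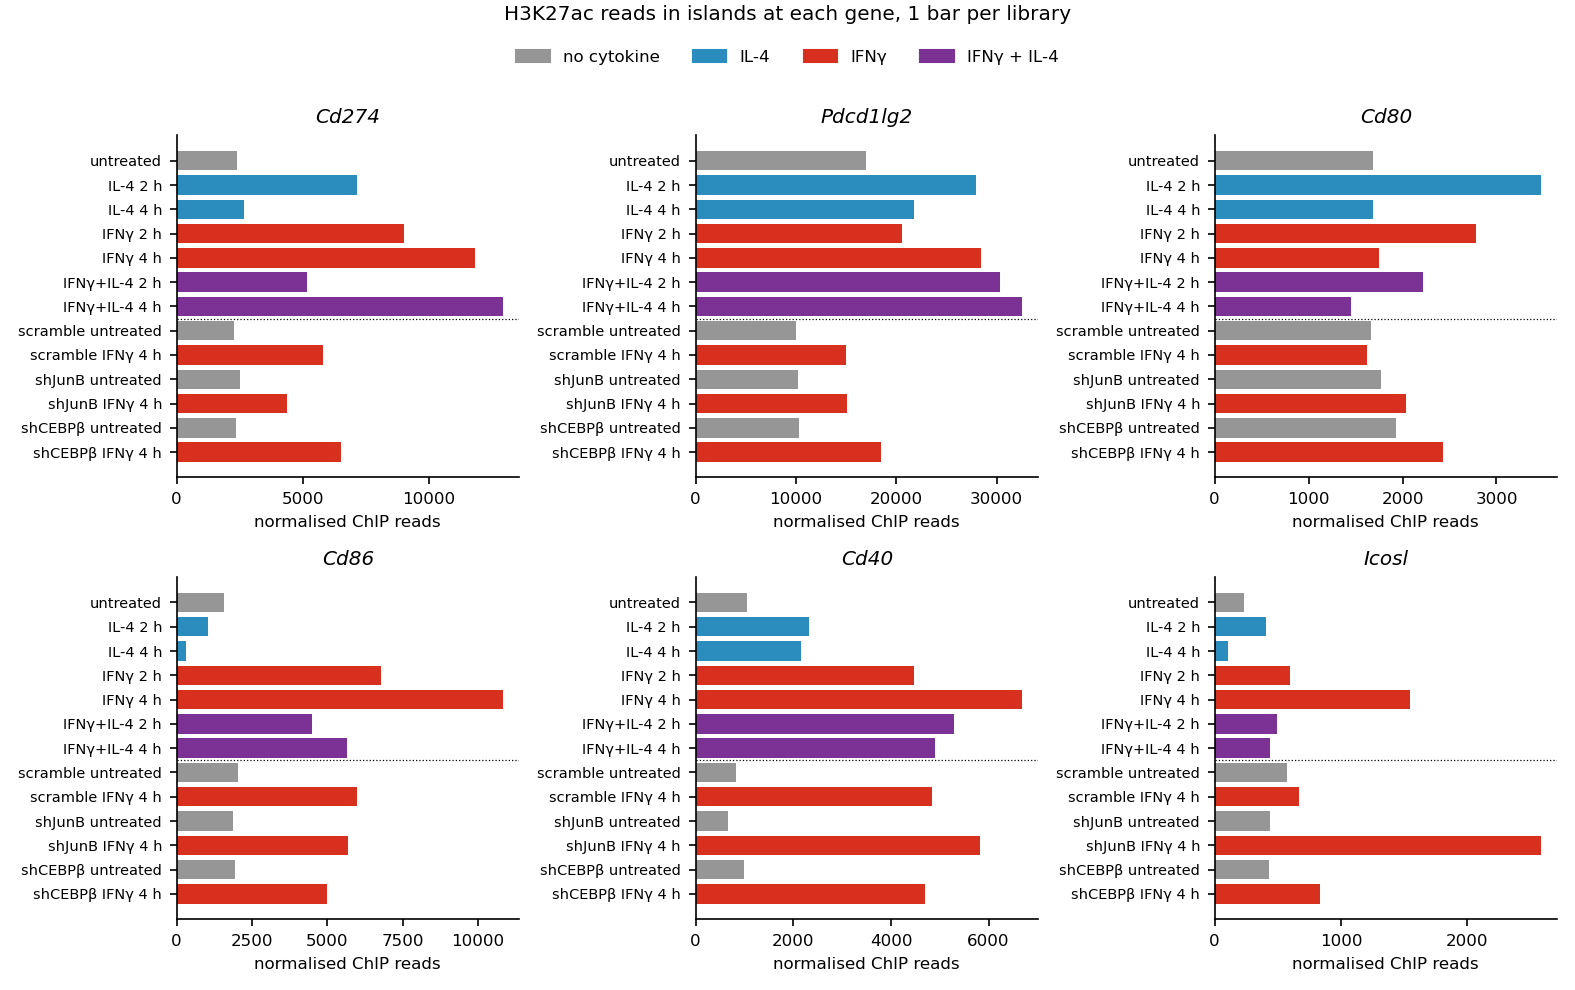
Normalised ChIP reads (x axis) in islands at each of the 6 genes, with 1 bar for each of the 13 libraries (y axis), grey without cytokine, blue with IL-4, red with IFNγ and purple with both; the dotted line parts the cytokine experiment above from the knockdown experiment below. Cd86 reached 10814 normalised reads with IFNγ at 4 h and 311 with IL-4 at 4 h, while Cd80 stayed between 1448 and 3471.

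Single comparisons had 1 library on each side and so no test. The size rule asks for a 2-fold difference or more, in either direction, and for 50 or more normalised reads on the higher side. Intervals beside a fold are exact (Clopper-Pearson) binomial 95% intervals and cover counting error only, as reads carry no molecular identifiers. A library without an island is written as not called.

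At the joined Cd274 and Pdcd1lg2 locus (chr19:29362107-29472927), acetylation was higher with each cytokine and highest with both. Untreated cells had 19787 normalised reads, IL-4 gave 31103 at 2 h and 24486 at 4 h, IFNγ gave 24272 and 32859, and both gave 35531 and 36904. In the knockdown experiment the untreated libraries had 12521 (scramble), 12837 (shJunB) and 12716 (shCEBP-beta), and the IFNγ libraries 17492, 19477 and 20989. All 3 IFNγ libraries lay above all 3 untreated ones, but the share of all genes that part in this way was not counted. Untreated knockdown cells lay below untreated cells of the cytokine experiment.

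The stretch between the genes had the largest ratios. The part from about 16.7 to 49.3 kb after the low-coordinate end of Cd274, which holds the distal end of Cd274 and the interval up to the start of Pdcd1lg2, was set apart after its islands had been seen and is described with no test. In 2 libraries, untreated scramble and shCEBP-beta with IFNγ, its first island began nearer the promoter, at 12.7 and 12.9 kb. In untreated cells it was broken into 5 small islands with 856 normalised reads in all, 37.5 per kb of called length. With IL-4 it held 3969 at 2 h and 2779 at 4 h, with IFNγ 5327 and 7403, and with both 7235 and 8529. These are 4.64-fold (4.28 to 5.03) and 3.25-fold (2.99 to 3.53) for IL-4, 6.23-fold (5.75 to 6.75) and 8.65-fold (8.01 to 9.35) for IFNγ, and 8.46-fold (7.83 to 9.15) and 9.97-fold (9.24 to 10.8) for both. Each cytokine library thus lay above the untreated library, and both cytokines above either alone at the same time. Per kb the stretch went from 37.5 to 262 with both at 4 h, so it was denser as well as longer.

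The densest island at any of the 6 genes lay in this stretch. With both cytokines at 2 h, the island at chr19:29398801-29411400, which ends just past the start of Pdcd1lg2, held 5709 reads, 451 normalised reads per kb, and a fold over the control of 22.5 in the authors' deposited table. The untreated library had 2 islands in those kilobases, with 40.6 and 30.1 normalised reads per kb. In the knockdown experiment the stretch had 1197, 1224 and 1205 normalised reads in untreated scramble, shJunB and shCEBP-beta cells, and 3314, 3682 and 3955 with IFNγ. That is 2.77-fold (2.57 to 2.98), 3.01-fold (2.82 to 3.21) and 3.28-fold (3.09 to 3.49). The values with IFNγ again lay above the untreated ones, in a stretch set apart after its islands had been seen.

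The ends of the locus differed less. The promoter side of Cd274 held 2050 normalised reads in untreated cells, 3683 and 4449.5 with IFNγ at 2 h and 4 h, and 3643 and 4410 with both. IL-4 gave 3191 at 2 h and 1842 at 4 h, which was above the untreated value at the earlier time and below it at the later one. The ratio of both cytokines to IFNγ alone was 0.99 at each time (intervals 0.94 to 1.04 and 0.96 to 1.03), so no difference was detectable there. From about 73.7 kb onward, a single island of 66.0 to 79.0 kb in each library lay over the body of Pdcd1lg2 and ran past it. The gene ends at 110.8 kb and the island ended at 140.1 to 152.7 kb, so its reads were not all from the gene. This island had 14624 normalised reads in untreated cells. It held 18634 and 15403 with IL-4, 11807 and 15511 with IFNγ, and 18596 and 17932 with both, so IFNγ at 2 h lay below untreated. The first part of Pdcd1lg2, at about 50 to 72 kb, lay between these, with 2257 normalised reads untreated, 5309 and 4463 with IL-4, 3455 and 5496 with IFNγ, and 6057 and 6033 with both.

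**Figure D2:**
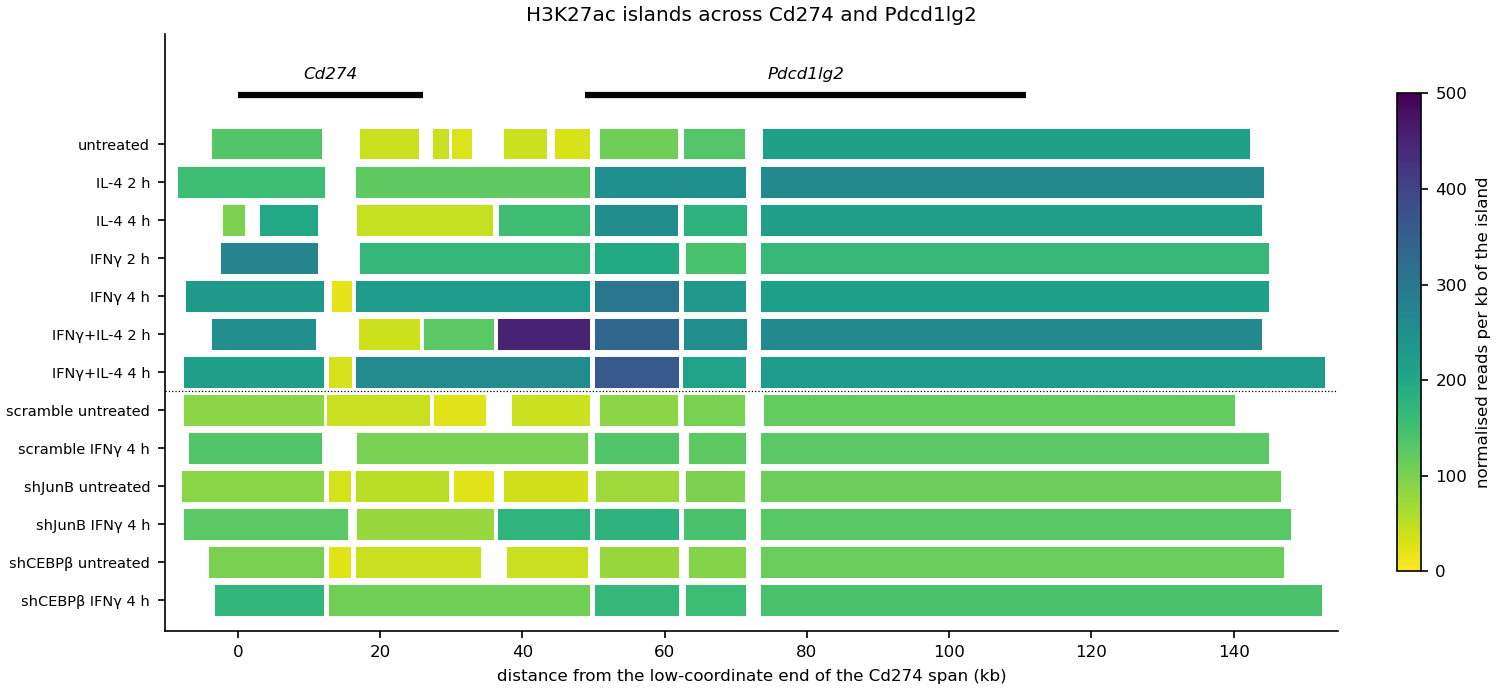
H3K27ac islands across Cd274 and Pdcd1lg2, with 1 row per library and the distance from the low-coordinate end of Cd274 in kb on the x axis; black lines are the gene spans and the colour of an island gives its normalised reads per kb. The stretch between the genes is broken and pale in the untreated libraries and is the darkest of the map, at 451 reads per kb, with both cytokines at 2 h.

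As whole genes the members of this locus read as follows. Cd274 had 2379 normalised reads in untreated cells, 7160 and 2684 with IL-4 at 2 h and 4 h, 9010 and 11852 with IFNγ, and 5191 and 12939 with both. It passed the size rule with IFNγ at 2 h (3.79-fold, 3.61 to 3.98) and at 4 h (4.98-fold, 4.75 to 5.22), with IL-4 at 2 h (3.01-fold, 2.86 to 3.17), and with both at 2 h (2.18-fold, 2.07 to 2.30) and at 4 h (5.44-fold, 5.19 to 5.70). The sum for Cd274 depends on whether the stretch between the genes was called as 1 island: with both cytokines at 2 h, with IL-4 at 4 h and in shJunB cells with IFNγ, and in the untreated libraries it was split, and only the part nearer the promoter touches Cd274. With reads weighted by the share of an island inside the window, Cd274 was 2.42-fold and 2.63-fold higher with IFNγ and 1.62-fold higher with IL-4 at 2 h. Pdcd1lg2 had 17019 normalised reads untreated, 27912 and 21802 with IL-4, 20589 and 28409 with IFNγ, and 30340 and 32494 with both. No library of the cytokine experiment passed the size rule for Pdcd1lg2, the largest ratio to untreated being 1.91 (1.87 to 1.95) with both at 4 h. Weighted by the share inside its window, Pdcd1lg2 had 10434 normalised reads untreated, 15581 and 13060 with IL-4, 10024 and 14138 with IFNγ, and 16826 and 15075 with both. So weighted, IFNγ at 2 h lay below untreated.

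Cd86 lay above untreated cells with IFNγ and below them with IL-4 at both times. Untreated cells had 1580 normalised reads, IFNγ gave 6773 at 2 h and 10814 at 4 h, and IL-4 gave 1049 and 311. Both cytokines gave 4476 and 5646, below IFNγ alone and above untreated cells at each time. IFNγ was 4.29-fold (4.04 to 4.55) and 6.84-fold (6.47 to 7.25) higher than untreated, IL-4 at 4 h had a ratio of 0.20 (0.17 to 0.22), and both with IFNγ alone at 4 h a ratio of 0.52 (0.51 to 0.54), just short of the size rule. By summed reads IFNγ at 4 h was 34.7-fold (31.2 to 38.8) higher than IL-4 at 4 h, the largest of the 6 genes in any single comparison. The islands of these libraries covered 89.4 and 6.4 kb, with 121 and 48.6 normalised reads per kb. In the knockdown experiment Cd86 had 2033, 1860 and 1925 normalised reads untreated and 5969, 5678 and 4985 with IFNγ. Each IFNγ value lay above each untreated one, and the share of all genes for which this holds was not counted.

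At Cd86 the called length moved with the reads. The islands covered 30.0 kb in untreated cells, 89.4 kb with IFNγ at 4 h and 6.4 kb with IL-4 at 4 h. Normalised reads per kb were 52.7, 121 and 48.6 in these libraries, a ratio to untreated of 2.30 for IFNγ and 0.92 for IL-4, so this IL-4 library differed mainly in length. With IFNγ at 4 h a single island ran from 23.4 to 79.0 kb of the span, where untreated cells had 3 islands of 1.6 to 7.2 kb. The lower-coordinate part (to 80 kb of the span, a division made after the islands were seen) was 3.46-fold higher with IFNγ at 2 h and 8.62-fold at 4 h. The higher-coordinate part was 5.18-fold and 4.92-fold higher, although at 2 h its island began at 70.4 kb and so took in some of the other part. With IL-4 at 4 h the ratios of the parts were 0.16 and 0.23.

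Cd40 was higher with each cytokine. Untreated cells had 1057 normalised reads, IL-4 gave 2320 at 2 h and 2157 at 4 h, IFNγ 4469 and 6679, and both 5294 and 4909. All 6 cytokine libraries passed the size rule, from 2.04-fold (1.89 to 2.21) with IL-4 at 4 h to 6.32-fold (5.89 to 6.78) with IFNγ at 4 h. In the knockdown experiment untreated cells had 836, 656 and 990 normalised reads, and IFNγ cells had 4842, 5823 and 4704. Per kb, Cd40 had 97.9 normalised reads in untreated cells and 209 with IFNγ at 4 h.

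The island at Cd40 reached further from the gene in each library with a cytokine than in the untreated libraries of its experiment, least so with IL-4 at 4 h. It began 1.4 kb before the low-coordinate end of the gene in untreated cells of the cytokine experiment and 2.0 to 4.8 kb before it in the untreated knockdown libraries. With IL-4 it began 14.8 kb before the gene at 2 h and 4.0 kb at 4 h, with IFNγ 18.6 and 24.0 kb, with both 22.2 and 24.2 kb, and in the 3 knockdown libraries with IFNγ 24.2 to 29.6 kb. Within its own experiment the island with IL-4 at 4 h thus began further out than in untreated cells, at 4.0 against 1.4 kb. The untreated knockdown libraries spanned 4.0 kb, but they belong to the other experiment, where called lengths were longer. With IFNγ at 4 h, in all 4 backgrounds, and with both cytokines at both times the island takes in part of Ncoa5, a nuclear receptor coactivator gene, which then shares its reads with Cd40, while the islands with IL-4 and with IFNγ at 2 h end short of Ncoa5. With reads weighted by the share inside the Cd40 window, the gene was 1.44-fold and 1.84-fold higher with IFNγ at 2 h and 4 h, 1.60-fold with IL-4 at 4 h, and 0.92 of the untreated value with IL-4 at 2 h. This weighting spreads the reads of an island evenly over its length.

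**Figure D3:**
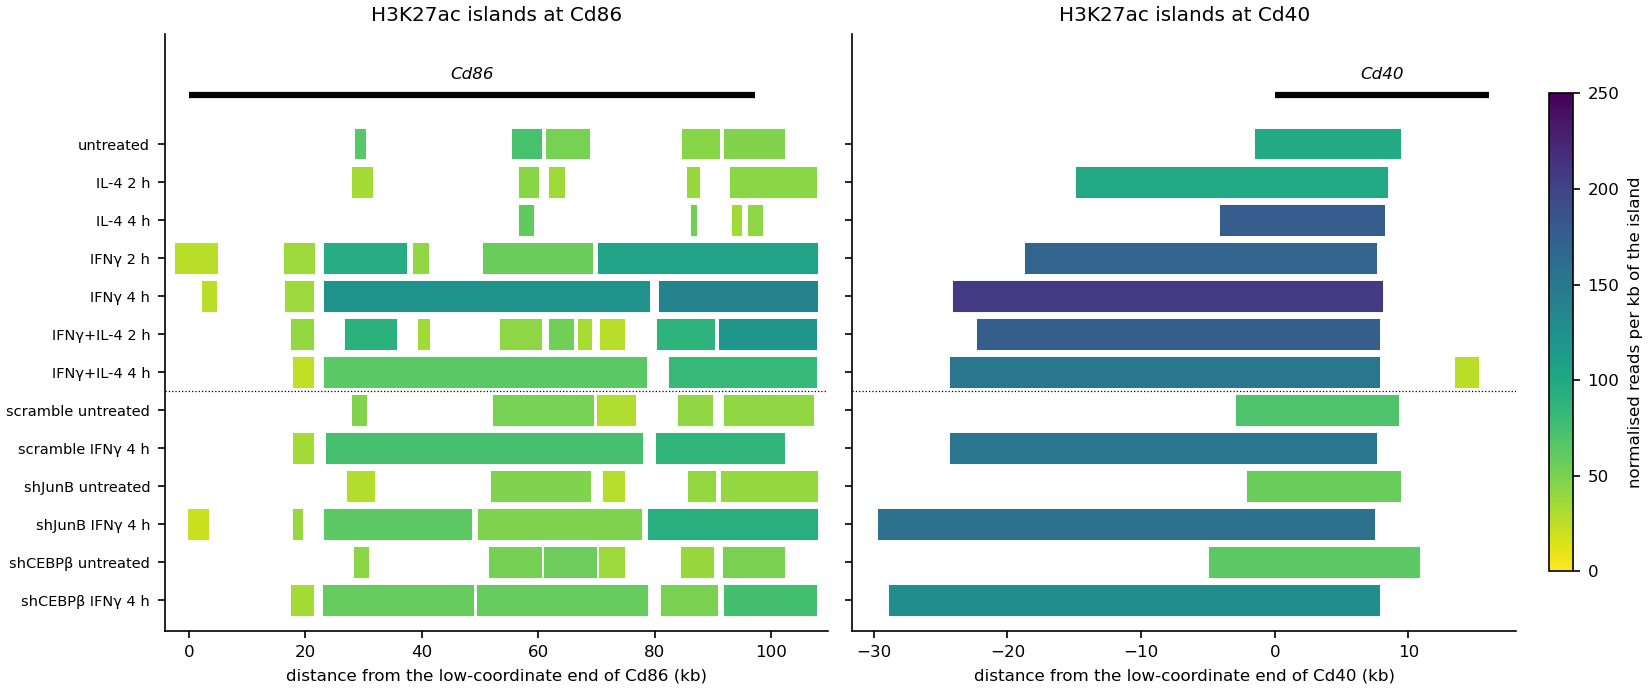
H3K27ac islands at Cd86 (left) and Cd40 (right), with 1 row per library and the distance from the low-coordinate end of each gene in kb on the x axis; black lines are the gene spans and colour gives normalised reads per kb of an island. The islands of Cd86 covered 89.4 kb with IFNγ at 4 h against 6.4 kb with IL-4 at 4 h, and the Cd40 island began 1.4 kb before the gene in untreated cells against 24.0 kb with IFNγ at 4 h.

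Cd80, the other CD28 ligand, differed little. It had 1689 normalised reads in untreated cells, 3471 and 1691 with IL-4 at 2 h and 4 h, 2785 and 1750 with IFNγ, and 2222 and 1448 with both. The highest value, 2.05-fold (1.93 to 2.19) with IL-4 at 2 h, passed the size rule, but its island began 28.4 kb before the gene, against 6.2 kb in untreated cells. The longer island reached the neighbour Pla1a, while the neighbour Adprh lay under the Cd80 island in untreated cells too. Weighted by the share inside the window the ratio was 0.92. The knockdown libraries held 1666, 1771 and 1935 normalised reads untreated and 1618, 2033 and 2430 with IFNγ, and these groups overlapped.

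Icosl was the member with the fewest reads, except in shJunB cells with IFNγ, where Cd80 had fewer. Untreated cells had 233 normalised reads, IL-4 gave 404 and 107 at 2 h and 4 h, IFNγ 595 and 1544, and both 494 and 435. With IFNγ at 4 h an island 10.8 to 21.6 kb from the low-coordinate end, reaching past the gene, added 934 normalised reads. In shJunB cells with IFNγ an island from 8.0 to 43.4 kb added 2154, and these islands set the 2 highest totals, 1544 and 2579. The island over the start site alone held 233 normalised reads in untreated cells, 348 and 107 with IL-4, 595 and 554 with IFNγ, and 494 and 390 with both. There IFNγ lay above untreated at both times and IL-4 lay above it at 2 h and below it at 4 h. Over union regions the ratio of the IL-4 libraries to untreated was 0.55 at 2 h and 0.35 at 4 h. The other knockdown totals were 571, 437 and 428 untreated, 671 for scramble with IFNγ and 831 for shCEBP-beta with IFNγ.

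The members were also read against all genes. Against untreated, 4 of 6 members were higher by the size rule with IFNγ at 2 h and at 4 h (Cd274, Cd86, Cd40 and Icosl), where 15.7% and 16.7% of all genes measured were. The median log2 ratio of the members was 1.64 and 2.49, against 0.01 over all genes at both times. With IL-4, 3 of 6 were higher at 2 h (Cd274, Cd80, Cd40; background 11.3%), and at 4 h 1 was higher (Cd40; 9.73%) and 2 were lower (Cd86 and Icosl; 13%). With both, 4 were higher at 2 h (Cd274, Cd86, Cd40 and Icosl; 15.7%) and 3 at 4 h (Cd274, Cd86 and Cd40; 14.9%). These counts move with how island length is treated. Per kb of called length, 0 members passed with IFNγ at 2 h and with IL-4 at either time, 1 with both at each time and 3 with IFNγ at 4 h. Over all genes, per-kb calls in either direction were 918 of 12026 with IFNγ at 2 h and 944 of 12159 at 4 h. With IL-4 they were 839 of 12159 and 749 of 12281, and with both 986 of 12172 and 774 of 12263. With window-weighted reads, 2 were higher with IFNγ at 2 h, 3 with IFNγ at 4 h and 2 with both at each time. With IL-4 so weighted 0 were higher at either time, while 1 was lower at 2 h and 2 at 4 h. Over all genes, weighted calls in either direction were 3418 of 13290 with IFNγ at 2 h and 3754 of 13453 at 4 h. With IL-4 they were 2755 of 13154 and 2595 of 13190, and with both 3480 of 13358 and 3118 of 13366. The 6 comparisons share the untreated library.

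**Figure D4:**
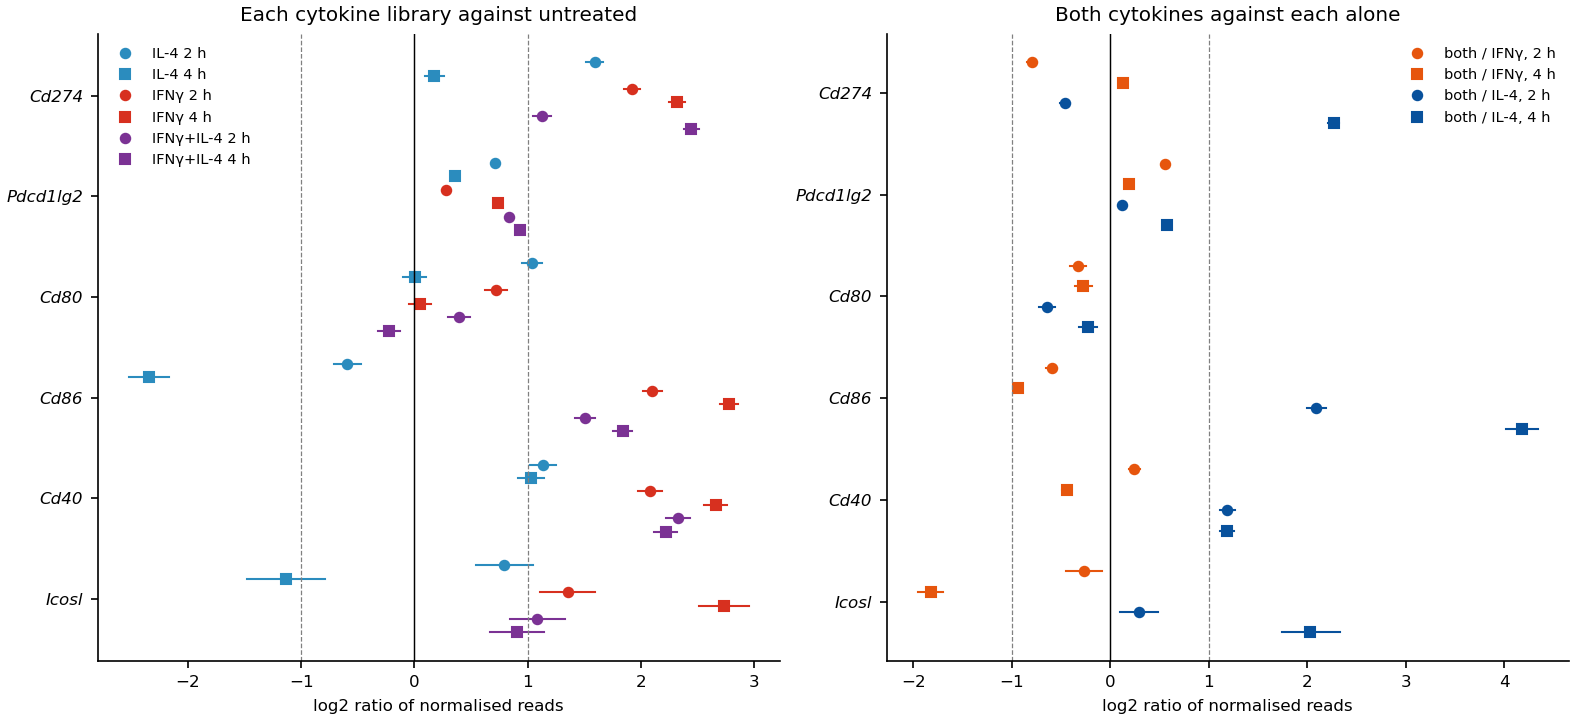
Log2 ratios of normalised reads (x axis) for the 6 genes, each cytokine library against untreated (left) and both cytokines against each alone (right); circles are 2 h, squares 4 h, horizontal bars exact 95% counting intervals and dashed lines the 2-fold size rule. Cd86 lies right of 0 with IFNγ (4.29-fold and 6.84-fold) and left of it with IL-4 (ratios 0.66 and 0.20).

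IFNγ at 4 h was the contrast that recurred, in the cytokine experiment and in scramble, shJunB and shCEBP-beta cells. In the fit over these 4 backgrounds (8 libraries, background as a block, edgeR's quasi-likelihood test with Benjamini-Hochberg adjustment over 11846 genes), 4 of 6 members rose, against 15.3% of all genes that rose and 17.8% that fell. Cd40 rose by a log2 fold change of 2.65 ± 0.19 (SE; adjusted p = 0.00446), Cd86 by 1.82 ± 0.27 (adjusted p = 0.0121), Cd274 by 1.48 ± 0.26 (adjusted p = 0.0179) and Pdcd1lg2 by 0.68 ± 0.08 (adjusted p = 0.00816). The joined locus rose by 0.63 ± 0.08 (adjusted p = 0.00816). With IFNγ at 4 h, except in shJunB cells, a single island spanned the stretch between Cd274 and Pdcd1lg2 and was counted whole for both genes. It held 7403 normalised reads in the cytokine experiment. The calls of Cd274, Pdcd1lg2 and the joined locus thus share reads and are not separate results. Icosl, at 1.62 ± 0.51 (adjusted p = 0.0639), and Cd80, at 0.13 ± 0.12 (adjusted p = 0.397), did not pass, although DESeq2 called Icosl (adjusted p = 0.000557). In the same fit 2 of 5 fitted dendritic cell markers rose and 2 of 4 fitted T cell markers fell, and their part was not tested. The pairs are not replicates of 1 condition, and Cd274 no longer passed without the scramble pair (adjusted p = 0.0634) or without the shCEBP-beta pair (adjusted p = 0.0692).

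By background, Cd40 was 6.32-fold higher in the cytokine experiment, 5.79-fold (5.35 to 6.27) in scramble, 8.88-fold (8.20 to 9.62) in shJunB and 4.75-fold (4.45 to 5.07) in shCEBP-beta cells. Normalised reads weighted by the share inside the Cd40 window rose less. They went from 1017 to 1876 in the cytokine experiment and from 710 to 1308 in scramble cells. In shJunB cells they went from 598 to 1320, and in shCEBP-beta cells from 748 to 1129. Over union regions the fitted log2 fold change of Cd40 was 1.68 ± 0.14 (SE), against 2.65 ± 0.19. Cd86 was 6.84-fold higher in the cytokine experiment and 2.94-fold (2.78 to 3.11), 3.05-fold (2.90 to 3.22) and 2.59-fold (2.46 to 2.72) in the shRNA cells. The counting interval of Cd86 in the cytokine experiment lay above those of the 3 others, and this difference was not tested. Pdcd1lg2 lay between 1.48-fold and 1.78-fold in all 4. Icosl ranged from 1.18-fold (1.03 to 1.34) in scramble to 6.62-fold (5.71 to 7.72) in the cytokine experiment. The size rule counted 3 higher members in scramble (Cd274, Cd86, Cd40; background 8.60%), 3 in shJunB (Cd86, Cd40, Icosl; 10.3%) and 3 in shCEBP-beta cells (Cd274, Cd86, Cd40; 9.34%).

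**Figure D5:**
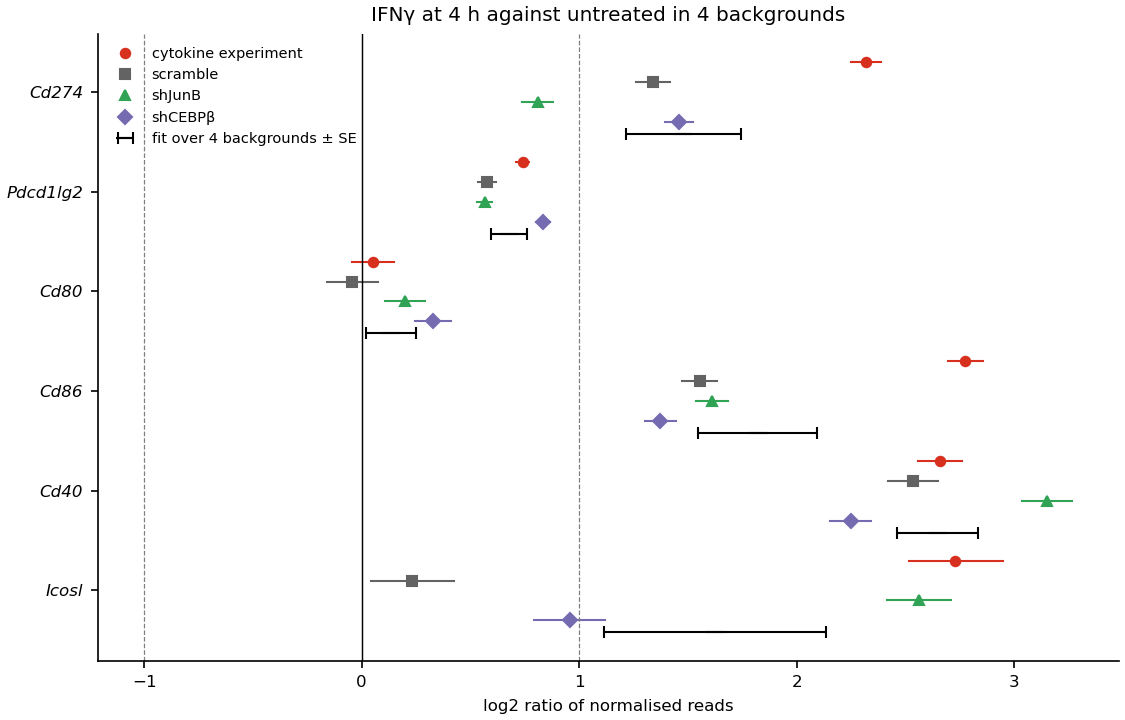
Log2 ratios of normalised reads (x axis) for IFNγ at 4 h against untreated cells in the cytokine experiment and in scramble, shJunB and shCEBP-beta cells, with 95% counting intervals, and in black the estimate of the fit over the 4 backgrounds with its SE. Cd40 lies beyond the 2-fold line in all 4 (4.75-fold to 8.88-fold), Pdcd1lg2 short of it in all 4, and the Icosl values spread from 1.18-fold to 6.62-fold.

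IFNγ and IL-4 were compared directly over 2 h and 4 h in a fit of the 6 treated libraries with time as a term. With IFNγ, Cd86 was higher than with IL-4 by a log2 fold change of 3.77 ± 0.76 (SE; edgeR adjusted p = 0.0486) and Cd40 by 1.30 ± 0.26 (edgeR adjusted p = 0.0477). These were 2 of 6 members, against 8.14% of all genes that were higher and 8.40% that were lower. Cd274 (1.05 ± 0.72, adjusted p = 0.344), Icosl (2.17 ± 0.90, adjusted p = 0.162), Pdcd1lg2 (-0.03 ± 0.24, adjusted p = 0.934) and Cd80 (-0.14 ± 0.20, adjusted p = 0.637) did not pass. By size 1 member was higher at 2 h (Cd86, 6.46-fold, background 13.7%) and 4 at 4 h (Cd86, Icosl, Cd274 and Cd40, 18.2%). Scaling by depth moved the median log2 fold change of all genes in this fit from -0.07 to -0.23 and the calls to 913 higher and 1661 lower, against 962 and 992. For both cytokines against IL-4 it moved that median from -0.04 to -0.16. The calls of Cd86 and Cd40 lie close to the threshold and were lost when genes with missing islands were filled in (adjusted p = 0.0637 for Cd86 and 0.0598 for Cd40).

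Adding IL-4 to IFNγ gave no call. In the same fit edgeR called 0 of 11812 genes between both cytokines and IFNγ alone (1694 at an unadjusted p under 0.05; DESeq2 called 362 higher and 215 lower), and neither tool called a member. By size, Icosl was the only member past the rule at 4 h, with a ratio of 0.28 (0.26 to 0.31) where 7.87% of all genes were lower, and none of the 6 passed at 2 h (background 10.0% in either direction). Over the start site of Icosl the ratio was smaller in size: 390 against 554 normalised reads. Cd40 had a ratio of 1.18 (1.14 to 1.23) at 2 h and 0.74 (0.71 to 0.76) at 4 h, and Pdcd1lg2 of 1.47 (1.45 to 1.5) and 1.14 (1.13 to 1.16). Cd274 had a ratio of 0.58 (0.56 to 0.60) at 2 h, which turned over union regions (1.21), and of 1.09 (1.07 to 1.11) at 4 h. Pdcd1lg2 was higher, and Cd86 lower, with both cytokines than with IFNγ alone at each time. Cd80 had ratios of 0.80 (0.75 to 0.84) and 0.83 (0.78 to 0.88), but of 1.03 and 1.15 with window-weighted reads, so its direction depended on the measure.

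Adding IFNγ to IL-4 gave no member call in edgeR, with 0.897% of all genes called and 3243 genes at an unadjusted p under 0.05. Cd86 had a log2 fold change of 2.96 ± 0.73 (adjusted p = 0.111) and Cd40 of 1.19 ± 0.26 (adjusted p = 0.0933), and DESeq2 called these 2 members. By size Cd86 was 4.27-fold (3.99 to 4.57) higher at 2 h and 18.1-fold (16.3 to 20.3) at 4 h, and Cd40 was 2.28-fold higher at each time, although at 4 h its log2 ratio turned with window-weighted reads (-0.24) and per kb (-0.28). These were the 2 members higher at 2 h (background 12.6%), and at 4 h Cd274 (4.82-fold) and Icosl (4.09-fold) passed as well (13.4%).

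Between 2 h and 4 h the treatments ran in different directions. With IFNγ alone Cd86 was 1.60-fold (1.55 to 1.65) higher at 4 h than at 2 h, Cd40 1.49-fold (1.44 to 1.55) and Pdcd1lg2 1.38-fold (1.36 to 1.40), while Cd80 had a ratio of 0.63 (0.59 to 0.66). Icosl, at 2.60-fold (2.36 to 2.86), was the only member past the size rule there (background 8.23% higher), through its downstream island. With IL-4 alone Cd86 had a ratio of 0.30 (0.26 to 0.34), Icosl of 0.26 (0.21 to 0.33) and Pdcd1lg2 of 0.78 (0.77 to 0.79). Cd86, Icosl, Cd274 and Cd80 passed the size rule downward, 4 of 6 where 5.52% of all genes did. With window-weighted reads 2 of these passed, and per kb or over union regions 0 did. Over all genes, calls in either direction were 768 of 13070 with weighted reads, 210 of 12490 per kb and 571 of 13427 over union regions. The log2 ratio of Cd80 turned when weighted (0.14) and per kb (0.50), and that of Cd86 per kb (0.24). With both, Cd86 was 1.26-fold (1.22 to 1.31) higher at 4 h, Cd80 had a ratio of 0.65 (0.61 to 0.69), and Cd274 alone passed the size rule (2.49-fold, background 8.12%), though not over union regions (1.17-fold). By summed reads Cd80 was thus lower at 4 h than at 2 h under each of the 3 treatments, with its longest islands at 2 h with each single cytokine. Per kb it was not: it had 94.8 and 134 normalised reads per kb with IL-4 at 2 h and 4 h, 94.1 and 109 with IFNγ, and 106 at each time with both.

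Neither shRNA gave a call at a member. Over both states edgeR called 0 of 12447 genes for shJunB against scramble (1226 at an unadjusted p under 0.05; DESeq2 called 130 higher and 102 lower) and 1 gene, 0.00803% of those fitted, for shCEBP-beta (579 at an unadjusted p under 0.05; DESeq2 called 67 and 12), and neither tool called a member. The fitted values lay between -0.13 ± 0.20 (Cd274) and 0.85 ± 0.64 (Icosl) for shJunB, and between -0.17 ± 0.12 (Cd86) and 0.40 ± 0.14 (Cd80) for shCEBP-beta, on the log2 scale. By size, Icosl in shJunB cells with IFNγ was 3.85-fold (3.46 to 4.28) above scramble with IFNγ, the only member past the rule (background 4.79% higher), but its start-site island held 425 normalised reads against 620, and the excess came from the downstream island. Pdcd1lg2 held 10054, 10203 and 10349 normalised reads in the 3 untreated knockdown libraries, which lay within 1.03-fold of each other. No member passed the size rule between shJunB and scramble cells without cytokine (background 7.95%) or between shCEBP-beta and scramble cells in either state (5.86% and 5.78%). These counting ratios do not show that the shRNAs leave the genes alike, as each state has 1 library per shRNA.

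The untreated scramble library differed from the untreated library of the cytokine experiment at some members. Pdcd1lg2 had a ratio of 0.59 (0.58 to 0.61) and Icosl was 2.45-fold (2.07 to 2.90) higher, 1 of 6 past the size rule upward where 13.6% of all genes were. This Icosl call was lost and its log2 ratio turned per kb (-0.40), over union regions (-0.13) and with 10 kb flanks (-0.049). By summed reads Cd274 (0.96, 0.91 to 1.03) and Cd80 (0.99, 0.92 to 1.06) did not differ beyond counting error. Per kb of called length both were lower in scramble cells, Cd274 at 68.2 against 103 normalised reads and Cd80 at 80.1 against 130. The promoter side of Cd274 had a ratio of 0.83 (0.78 to 0.89). Experiment and shRNA cannot be told apart in this comparison, so levels were compared within each experiment.

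Genes can be compared only per kb of called length. On that scale Pdcd1lg2 was the highest member in untreated cells, at 186 normalised reads per kb, followed by Cd80 at 130, Cd274 at 103, Cd40 at 97.9, Icosl at 64.7 and Cd86 at 52.7. With IFNγ at 4 h the order was Pdcd1lg2 (229), Cd274 (219), Cd40 (209), Cd86 (121), Cd80 (109) and Icosl (84.8). With IL-4 at 4 h it was Pdcd1lg2 (212), Cd40 (177), Cd80 (134), Cd274 (91.3), Cd86 (48.6) and Icosl (48.4). At 4 h Cd40 moved past Cd80 with each cytokine, and Cd86 moved past Cd80 with IFNγ. Neighbours such as Cd86 and Icosl with IL-4, or Pdcd1lg2 and Cd274 with IFNγ, lay so close that 1 library each does not set their order.

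Across the 13 libraries the log2 levels of Cd274 correlated with those of Cd40 at a Pearson r of 0.82, those of Cd86 with Icosl at 0.80, and those of Cd274 with Pdcd1lg2, which share islands, at 0.76. Cd80 had an r between -0.02 and 0.25 with the other members. Among genes called in all 13 libraries that share no island with the member, the closest patterns were Mb21d2 for Cd40 (r = 0.98), Slc8a1 for Cd86 (0.97), Asap1 for Pdcd1lg2 (0.96), Acyp2 for Cd274 (0.94), Rap1b for Icosl (0.93) and Mefv for Cd80 (0.87). The libraries share a control, differ in depth and come from the same few treatments, so these values are a description.

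The genes through which CD40 signals were listed as a group. In the fit of IFNγ over 4 backgrounds, 7 of 11 listed CD40 signalling genes rose and 1 fell, where 15.3% of all genes rose and 17.8% fell, with a median log2 fold change of 0.70 against -0.02 over all genes. Traf1, an adaptor of TNF receptors, rose by 1.35 ± 0.20 (SE; edgeR adjusted p = 0.0118), Birc3, a ubiquitin ligase of the same complexes, by 1.26 ± 0.14 (adjusted p = 0.00692) and Traf2 by 2.08 ± 0.18 (adjusted p = 0.00578). Map3k14, the kinase of the noncanonical NF-κB pathway, fell by 0.33 ± 0.09 (adjusted p = 0.0438). Between both cytokines and IFNγ alone at 4 h, 6 of the 11 were lower by size and 1, Traf5, was higher, where 7.87% of all genes were lower and 8.16% higher. Traf1 had 6090 normalised reads with IFNγ and 1748 with both, a ratio of 0.29, while edgeR called 0 of the 11 in that contrast over both times.

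Other ligands were read in the same fit, where again 15.3% of all genes rose and 17.8% fell. Of 8 other B7-like and checkpoint ligands fitted, 2 rose (Pvr by 1.13 ± 0.17 and Cd47 by 0.51 ± 0.12, edgeR adjusted p = 0.0129 and 0.0332) and 1 fell (Vsir, which encodes VISTA, by 0.94 ± 0.09, adjusted p = 0.00605). Of 6 costimulatory ligands of the TNF superfamily, 1 rose, Tnfsf4 (OX40 ligand), by 1.84 ± 0.42 (adjusted p = 0.0312). With IL-4 against untreated, 5 of 6 of these TNF ligands were lower by size at 2 h and 6 of 6 at 4 h, where 12.9% and 13% of all genes were lower. Tnfsf9 (4-1BB ligand) had 2522 normalised reads untreated, 550 and 778 with IL-4. Tnfsf18 (GITR ligand) had 5856 untreated, 421 and 566 with IL-4, and 4039 and 3035 with IFNγ. Their median log2 ratio was -1.81 and -1.63, against 0.05 and 0.00 over all genes.

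Of 6 listed receptors and partners of the members, 4 could be fitted, and 2 rose and 2 fell, where 15.3% of all genes rose and 17.8% fell. Cd28 fell by 2.33 ± 0.28 and Icos by 1.22 ± 0.31, while Pdcd1 rose by 1.05 ± 0.12 and Rgmb, a PD-L2 partner, by 0.66 ± 0.15 with IFNγ (edgeR adjusted p between 0.00729 and 0.0391). Cd40lg had no island in any library. Of 14 regulators of these ligands and of cytokine signalling, read against the same shares, 5 rose, among them Socs1 (3.96 ± 0.49, adjusted p = 0.00832), Jak2 (1.89 ± 0.13, adjusted p = 0.00434) and Irf1 (1.06 ± 0.19, adjusted p = 0.0179), and 3 fell, among them Ifngr1, a subunit of the IFNγ receptor, by 1.97 ± 0.26 (adjusted p = 0.00895).

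Of 42 protein-coding genes within 200 kb of a member, 32 could be fitted for IFNγ over 4 backgrounds, and 12 rose and 3 fell, where 15.3% of all genes rose and 17.8% fell. Some share islands with a member: Plgrkt with Cd274, Ncoa5 with Cd40, and Adprh and Pla1a with Cd80. Jak2, the kinase of the IFNγ receptor, lies near Cd274 on chromosome 19 without sharing islands with it. It had 461 normalised reads in untreated cells, 5682 and 3711 with IL-4 at 2 h and 4 h, 2744 and 2066 with IFNγ, and 1732 and 4020 with both, so each cytokine library lay above the untreated one.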

How the data were processed

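H3K27ac ChIP-seq was measured in 13 libraries, 1 per condition. Per the submitters' processing notes the authors used Bowtie2 2.2.6 and SICER 1.1, with the builds mm10 and GRCm38 named, no roles being given. The deposited counts are raw ChIP and control reads per island. For each island the authors also deposited a p-value, an FDR (highest 0.00999) and a fold, which is a ratio of ChIP to control reads. Island edges lie on a 200 bp grid with gaps of at least 800 bp, so nearby islands merge, and reads of an island are counted whole. The 29680 islands shared between files had equal control reads, as from a single control.

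Reads of each island touching a gene span (GRCm38.p6, without strand) or 1 kb either side were summed and divided by median-of-ratios size factors. For counts and list medians a library without an island took its 5th percentile of reads per island. Models used edgeR 4.0.16 with adjusted p under 0.05 as the threshold, with DESeq2 1.42.0, TMM and depth scaling, filled-in islands, union regions, 10 kb flanks and leaving out each background as alternatives. Single comparisons were repeated with window-weighted, per-kb and control-subtracted reads. The models were also run on simulated counts, which held no missing or merged islands and so cannot vouch for calls that depend on these. The rule named all 6 members in every comparison; their levels are given for every library, and ratios for those a comparison turns on. Of each list the genes past the test or the size rule may be named, up to 4 by size. Members and lists were chosen with earlier results of these data known.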

Additional observations from a re-analysis of the deposited data

Results flagged for a closer look

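Some members moved in opposite directions under the same contrast at 2 times or in 2 states. Each side had 1 library, and none of these differences was tested. Icosl with IL-4 against untreated had a ratio of 1.73 at 2 h and 0.46 at 4 h, but of 0.55 and 0.35 over union regions, where the opposite directions were lost. Cd80 with both cytokines against untreated had 1.31 at 2 h and 0.86 at 4 h, but 0.81 and 0.82 per kb of called length, where they were lost as well. Cd40 with both against IFNγ alone had 1.18 at 2 h and 0.74 at 4 h.

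Cd274 with both cytokines had a ratio of 0.58 to IFNγ alone at 2 h and 1.09 at 4 h, and of 0.73 to IL-4 alone at 2 h and 4.82 at 4 h. Union regions join overlapping islands of all libraries, and only reads in the called islands of a library count there. Over them the 2 h ratios were 1.21 and 1.54, so the opposite directions were lost.

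Between shJunB and scramble, Cd274 had a ratio of 1.09 untreated and 0.76 with IFNγ (1.14 over union regions), and Icosl had 0.77 and 3.85 (1.04 over union regions). Cd40 had 0.78 and 1.20, but 0.84 and 1.01 with window-weighted reads and 0.95 and 1.20 over union regions. Between shCEBP-beta and scramble, Icosl had 0.75 untreated and 1.24 with IFNγ.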

How the results depend on the processing

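Counts of members past the size rule moved by over 1.5 times with depth scaling in 0 of the 23 comparisons, and most often per kb of called length, in 16 of 23. Over all genes, calls in either direction numbered 780 to 4269 by the main rule. They fell in every comparison per kb (171 to 1060), with window-weighted reads (422 to 3754) and over union regions (214 to 3740). With 10 kb flanks (620 to 4555) and control reads subtracted (704 to 4567) they moved either way. The counts below are of members, and the shares of the main rule do not apply to them. Per kb the count was 0 for IFNγ at 2 h and IL-4 at 2 h and 4 h against untreated, both against IFNγ at 4 h, 4 h against 2 h with IFNγ and with IL-4, shJunB against scramble with IFNγ, and scramble against untreated cells of the cytokine experiment. It was 1 for both against untreated at each time, both against IL-4 at each time and IFNγ in the 3 shRNA backgrounds, and 2 for IFNγ against IL-4 at 4 h. With window-weighted reads it was 2 for IFNγ at 2 h, both at 2 h and IL-4 at 4 h against 2 h, 1 for IL-4 at 2 h, both against IL-4 at 2 h and IFNγ in scramble, and 0 for both against IFNγ at 4 h, 4 h against 2 h with IFNγ and with both, and shJunB with IFNγ. Over union regions it was 1 for IL-4 at 2 h, 2 for IFNγ against IL-4 at 2 h, and 0 for both against IFNγ at 4 h, 4 h against 2 h with each treatment, shJunB with IFNγ and scramble against untreated. With 10 kb flanks it was 2 for both at 2 h and 0 for both against IFNγ at 4 h, 4 h against 2 h with IFNγ, shJunB with IFNγ and scramble against untreated. With control reads subtracted it was 2 for both against IFNγ at 4 h and for IFNγ against IL-4 at 2 h. The cause of these moves was not tested.

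Of 50 member ratios past the size rule 8 turned under at least 1 alternative, and of 76 short of it, with a counting interval that left out 1, 31 turned, 22 of them per kb. The log2 ratios past the rule that turned were Cd80 with IL-4 at 2 h (-0.12 weighted, -0.45 per kb), Cd40 with IL-4 at 2 h (-0.12 weighted), Icosl with both at 2 h (-0.42, union), Cd40 with both against IL-4 at 4 h (-0.24 weighted, -0.28 per kb), and, at 4 h against 2 h, Icosl with IFNγ (-0.55 per kb, -0.30 with 10 kb), Cd80 with IL-4 (0.14 weighted, 0.50 per kb) and Cd86 with IL-4 (0.24 per kb). Icosl in scramble against untreated cells turned per kb (-0.40), over union regions (-0.13) and with 10 kb (-0.049).

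In the fits, both against IL-4 called 2 members with DESeq2 and 1 over union regions, and IFNγ against IL-4 called 0 with missing islands filled in. For IFNγ over 4 backgrounds Icosl was called with DESeq2 (adjusted p = 0.000557) and over union regions (0.00634), and Cd80 over union regions (0.0183). All genes called there numbered 2831 higher and 3184 lower with DESeq2, 2774 and 3082 over union regions, and 616 to 1773 higher and 687 to 2021 lower with a background left out. Both against IL-4 called 1167 and 621 genes with DESeq2, 713 and 311 over union regions, 278 and 95 with 10 kb flanks, 138 and 40 with islands filled in and 119 and 30 with TMM, against 78 and 28. IFNγ against IL-4 called 1710 and 1479 with DESeq2 and 1648 and 1693 over union regions. The fit over 4 backgrounds pairs each IFNγ library with the untreated one of its background. In the other fits the times, or the states without and with IFNγ, stand in as the pairs. No pairing by replicate was possible because each condition had 1 library and the labels give no shared replicate number. Icosl, with 115 reads in the IL-4 library at 4 h, is the member most limited by depth.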
